A study of Mus musculus with 2 samples.

Results

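The microRNA genes that lie inside the mouse Hox clusters were followed in the adrenal gland. They were chosen by position: Mir196b in the Hoxa cluster, Mir10a and Mir196a-1 in Hoxb, Mir196a-2 and Mir615 in Hoxc, and Mir10b in Hoxd, 6 of the 2202 annotated microRNA genes counted. The only group was whole adrenal tissue from female mice of strain B6CASTF1/J at 10 days of age, a first-generation hybrid of C57BL/6J and CAST/EiJ, with no treatment named in the labels. It held 2 libraries, biological replicates 1 and 2, from animals numbered 3 and 4. The labels give them separate biosample entries but the same donor entry, so the spread below may be partly technical. Small RNAs were sequenced and counted per hairpin gene. Levels are in CPM, the counts of a gene scaled to a common total of the reads assigned to microRNA genes, 2023410 in replicate 1 and 3208821 in replicate 2. No condition was compared with another.

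Hox genes encode homeodomain transcription factors that give cells their position along the body axis, and the paralogs with low numbers act towards the head while those with high numbers act towards the tail. The miR-10 genes sit next to paralog group 4 and the miR-196 genes just before group 9, and both families are transcribed in the same direction as the Hox genes around them. Several Hox transcripts are themselves targets of these microRNAs, the best known being the pairing of miR-196 with Hoxb8. The adrenal cortex comes from trunk mesoderm and the medulla from trunk neural crest, so both parts of the gland carry a Hox history.

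The mature sequences show which products a read count can tell apart. RefSeq (GRCm38.p6) held mature sequences for all 6 members. They are written 5′ to 3′ with bases 2 to 8, the seed that picks targets, in capitals. The main products of the miR-10 and miR-196 families are shown because each family shares 1 seed, and both arms of Mir615 because its counts do not separate them.
miR-10a-5p, chr11:96317186-96317208, plus strand: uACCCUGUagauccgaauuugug
miR-10b-5p, chr2:74726074-74726096, plus strand: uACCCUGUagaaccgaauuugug
miR-196a-5p of Mir196a-1, chr11:96265187-96265208, plus strand: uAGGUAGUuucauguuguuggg
miR-196a-5p of Mir196a-2, chr15:102973365-102973386, plus strand: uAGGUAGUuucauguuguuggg
miR-196b-5p, chr6:52230129-52230150, minus strand: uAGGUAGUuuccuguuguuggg
miR-615-3p, chr15:103014969-103014990, plus strand: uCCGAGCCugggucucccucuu
miR-615-5p, chr15:103014926-103014947, plus strand: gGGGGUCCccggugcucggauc

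Within each family the paralogs differed at the same place. Counted from 1 at the 5′ end, miR-10a-5p and miR-10b-5p differ by U12A alone, so the 11 bases before and the 11 bases after that position are identical. The 3′ arms of the miR-10 pair differ by A3G, U9A and A10U. miR-196a-5p and miR-196b-5p differ by A12C alone. No other mature mouse sequence in the RefSeq table has the seed ACCCUGU or AGGUAGU, and neither seed of Mir615 was shared with any other.

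The 2 copies of miR-196a cannot be told apart by their main product. The longest run that the hairpins of Mir196a-1 and Mir196a-2 have in common is exactly the 22 bases of miR-196a-5p, in capitals here.
Mir196a-1, chr11:96265164-96265265, plus strand: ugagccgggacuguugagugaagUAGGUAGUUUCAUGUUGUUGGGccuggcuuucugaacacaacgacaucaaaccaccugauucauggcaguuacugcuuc
Mir196a-2, chr15:102973350-102973434, plus strand: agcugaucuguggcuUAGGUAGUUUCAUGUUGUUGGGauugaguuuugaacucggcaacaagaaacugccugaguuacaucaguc
Reads that align to several places were not counted, and there were 65.2 and 72.6 of them per 100 assigned reads in replicates 1 and 2. A read of the mature miR-196a-5p that ends at its own ends therefore goes uncounted, and the values of both copies come from reads that also cover other bases, or from the 3′ arms. The levels of Mir196a-1 and Mir196a-2 below are given as counted and are no total for miR-196a.

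The known target site of miR-196 shows what the base at position 12 faces. The Hoxb8 transcript of GENCODE M21 holds, 418 bases after its stop codon, at chr11:96284888-96284909 on the plus strand, a site of 22 bases. It is written 5′ to 3′ with bases in Watson-Crick pairing with miR-196a-5p in capitals.
Hoxb8 site for miR-196a-5p: CCCAACAACAUGAAACUgCCUA
The site pairs with miR-196a-5p at 21 of 22 bases, and the remaining base, opposite position 5 of the microRNA, forms a G-U pair. With miR-196b-5p, 20 bases pair, since position 12 is unpaired as well. This is a description of the sequences, and Hoxb8 RNA was not measured here.

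The position of each gene followed its family. Mir10a lies at chr11:96317165-96317274 in no annotated host gene, and its hairpin starts 1.6 kb before the start codon of Hoxb4. Mir10b lies at chr2:74726070-74726137 in introns of Hoxd3 and Hoxd4, 1.21 kb before the start codon of Hoxd4. Mir196b lies at chr6:52230081-52230165, 4.06 kb before the start codon of Hoxa9, and is exonic in 2 noncoding Hoxa9 transcripts. Mir196a-2 lies 8.3 kb before the start codon of Hoxc9, in an intron of a long noncoding Hoxc5 transcript. Mir196a-1 lies 6.38 kb before that of Hoxb9 with no host. Mir615 lies at chr15:103014910-103015001 in an intron of Hoxc5, 0.83 kb past its start codon. One more annotated microRNA gene in these clusters, Gm44463 on the minus strand of Hoxd, had 0 counts in both libraries, which allows up to 1.48 and 0.935 CPM.

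**Figure D1:**
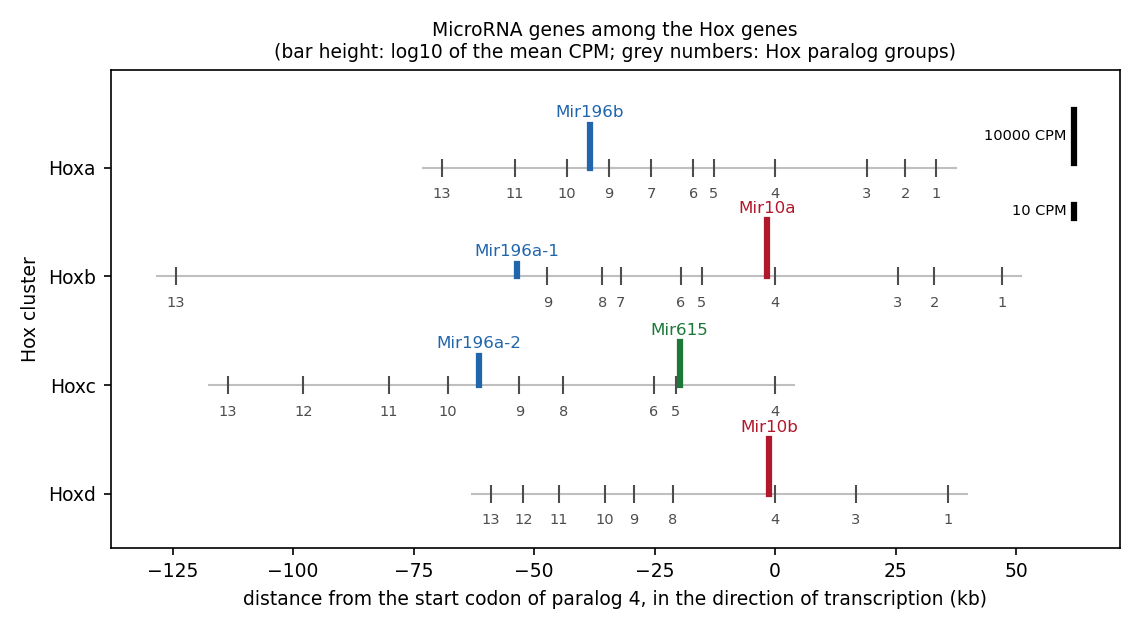
Position of the 6 microRNA genes among the Hox genes of each cluster (x axis, distance in kb from the start codon of paralog 4 in the direction of transcription, grey ticks marking Hox start codons by paralog number), with the mean level of both libraries as bar height on a log10 scale (red miR-10, blue miR-196, green Mir615). Mir10a and Mir10b, beside paralog 4, have the tallest bars, and the 3 miR-196 genes lie just before paralog 9.

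The miR-10 genes held nearly all of the counts. Mir10a, of Hoxb, had 34967 reads in replicate 1 and 80100 in replicate 2, which is 17281 and 24962 CPM, a mean of 21122 CPM ± 5431 (SD, n = 2). Mir10b, of Hoxd, had 15529 and 67671 reads, 7675 and 21089 CPM, a mean of 14382 CPM ± 9485 (SD, n = 2). Both genes were higher in replicate 2, and the range of Mir10b reached into that of Mir10a. The order of the pair thus does not hold beyond the spread between the libraries, although Mir10a was above Mir10b within each library. By mean level in counted reads, which leave out those with several alignments, they ranked 11 and 18 among all microRNA genes. Together they held 88.8% of the counted reads of the Hox-cluster microRNAs in replicate 1, with an exact Clopper-Pearson 95% interval of 88.6 to 89.1%. In replicate 2 they held 90.1% (89.9 to 90.2%). These and all later intervals cover counting error only, and not the spread between the libraries. No molecular identifiers are named in the labels, so reads copied in amplification could make the intervals too narrow.

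The balance within the miR-10 pair differed between the libraries. Mir10b gave 30.8% of the pair's reads in replicate 1, with an exact 95% interval of 30.4 to 31.2%. The share was 45.8% in replicate 2 (45.5 to 46.0%), and averaged 38.3% ± 10.6 (SD, n = 2). In other terms, Mir10a outnumbered Mir10b 2.25 to 1 in replicate 1 (2.21 to 2.29) and 1.18 to 1 in replicate 2 (1.17 to 1.20). This share needs no library total. Both arms of each hairpin enter these counts, and the reads of the arms were not separated. In whole tissue, a smaller number of cells that make a microRNA and less of it per cell cannot be told apart.

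Mir196b, of Hoxa, was the most counted miR-196 gene. It had 1374 and 10942 reads, 679 and 3410 CPM, a mean of 2045 CPM ± 1931 (SD, n = 2), and ranked 111 in replicate 1 and 50 in replicate 2. Mir196a-2, of Hoxc, had 173 and 866 reads, 85.5 and 270 CPM, with a mean of 178 CPM ± 130 (SD, n = 2). Mir196a-1, of Hoxb, had 19 and 31 reads, 9.39 CPM (exact 95% interval 5.65 to 14.7) and 9.66 CPM (6.56 to 13.7), and stayed under the floor of 10 CPM used to call a gene measured. Replicate 2 was higher for Mir196b and Mir196a-2, while the values of Mir196a-1 overlapped within counting error. Mir196b took 87.7% of the counted miR-196 reads in replicate 1 and 92.4% in replicate 2. The uncounted reads of miR-196a-5p stand outside this share.

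Mir615, the microRNA of the Hoxc5 intron, was the member with the higher level in replicate 1. It had 4786 reads in replicate 1 and 4451 in the deeper replicate 2, which is 2365 CPM (exact 95% limits 2299 and 2433) against 1387 CPM (1347 and 1428). These averaged 1876 CPM ± 692 (SD, n = 2). Mir615 was the third most counted member in replicate 1 and the fourth in replicate 2, where Mir196b stood above it. There were 0.287 reads of Mir196b for each read of Mir615 in replicate 1 (0.270 to 0.305) and 2.46 in replicate 2 (2.37 to 2.55). The order of this pair was thus not the same in both libraries.

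**Figure D2:**
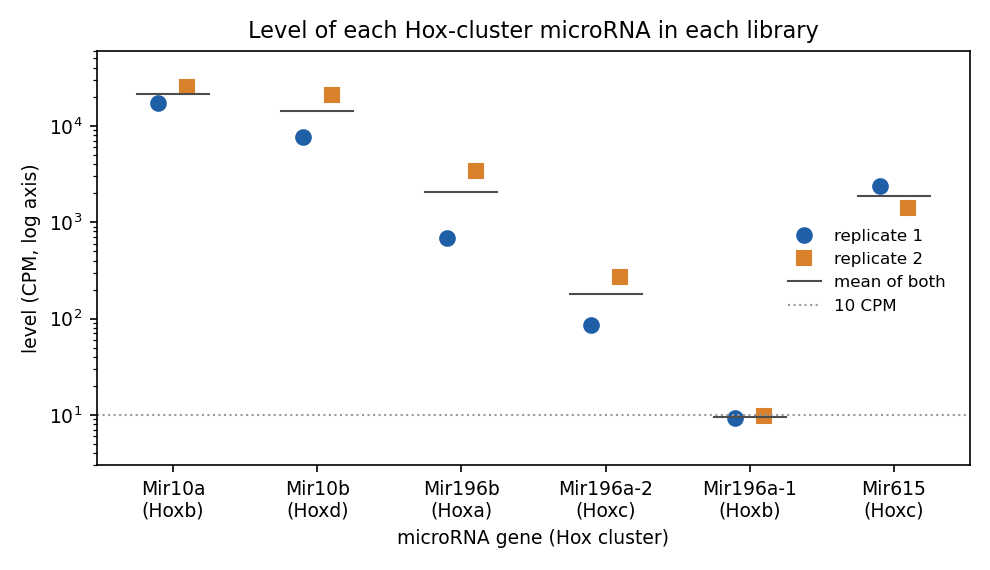
Level of each gene in CPM (log axis) in replicate 1 (circles) and replicate 2 (squares), with the mean of both as a line and the floor of 10 CPM dotted. Mir615 is the one gene whose replicate 1 point, at 2365 CPM, lies above its replicate 2 point, at 1387 CPM, and Mir196a-1 lies just under the floor in both.

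Ordered by mean level, the genes ran Mir10a, Mir10b, Mir196b, Mir615, Mir196a-2 and Mir196a-1. The values of the neighbours Mir10a and Mir10b overlapped between the libraries, as did those of Mir196b and Mir615. Within each library Mir10a was above Mir10b, whereas Mir196b and Mir615 changed order. The steps from Mir10b to Mir196b, from Mir615 to Mir196a-2 and from Mir196a-2 to Mir196a-1 were larger than the spread. No values overlapped across them. The steps to Mir196a-2 and Mir196a-1 hold for counted reads only, since reads of miR-196a-5p shared by both copies were not counted. Summed by cluster, Hoxb led with 1.73% and 2.50% of all microRNA counts in replicates 1 and 2, followed by Hoxd with 0.767% and 2.11%. Hoxc held 0.245% and 0.166%, and Hoxa 0.0679% and 0.341%. In counted reads, Hoxc was thus above Hoxa in replicate 1 and below it in replicate 2. The sums of Hoxb and Hoxc lack the uncounted reads of miR-196a-5p, so the order of the clusters with these reads is not known. All 6 genes together took 2.81% (exact 95% limits 2.79 and 2.83%) of all counts in replicate 1 and 5.11% (limits 5.09 and 5.14%) in the other library. The average was 3.96% ± 1.63 (SD, n = 2).

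The Hox-cluster counts also differed in makeup. Mir10a held 61.5% of them in replicate 1 and 48.8% in replicate 2, and Mir615 held 8.42% and 2.71%. Mir10b stood at 27.3% and 41.2%, and Mir196b at 2.42% and 6.67%. Within Hoxc, Mir196a-2 held 3.49% of the cluster's counted reads in replicate 1 (exact 95% limits 3.00 and 4.04%) and 16.3% in replicate 2 (limits 15.3 and 17.3%). Of the 2 microRNAs of Hoxc, 1 was thus higher and 1 lower in replicate 2 as counted. The uncounted reads of miR-196a-5p stand outside these values.

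**Figure D3:**
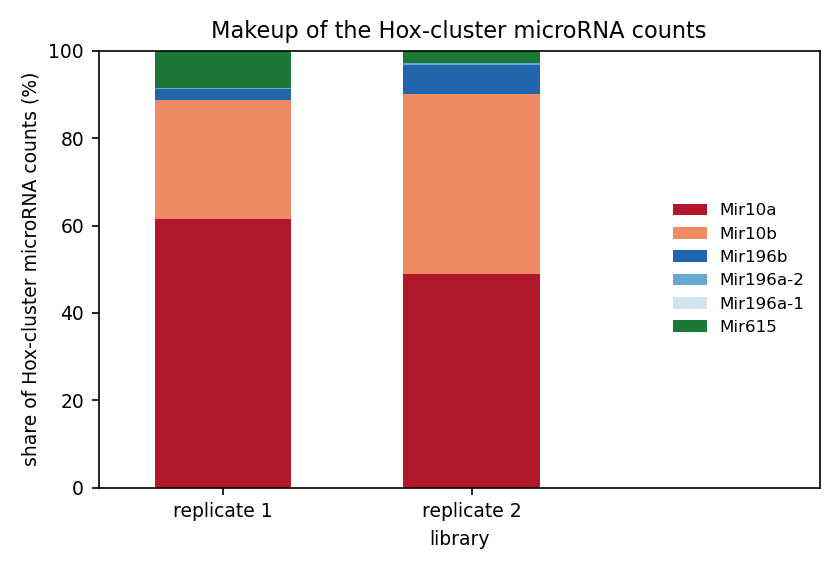
Share of each gene in the Hox-cluster microRNA counts of replicates 1 and 2 (y axis, percent of those counts, from 0 to 100). The miR-10 genes fill 88.8% and 90.1%, with a larger part from Mir10b in replicate 2, where Mir615 stands at 2.71%.

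To set these differences beside those of other genes, log2 ratios of replicate 2 over replicate 1 were taken on library sizes scaled by edgeR's TMM method, with a pseudocount of 1 CPM. They compare 2 libraries of 1 group, and no p-value was attached. Mir196b had a log2 ratio of 2.37 (exact 95% interval 2.30 to 2.46), Mir196a-2 of 1.69 (1.47 to 1.95) and Mir10b of 1.51 (1.48 to 1.53). Mir10a stood at 0.58 (0.56 to 0.60), Mir196a-1 at 0.08 (-0.78 to 0.99) and Mir615 at -0.72 (-0.78 to -0.66). The interval of Mir196a-1 spans 0, so no difference was detectable at its depth.

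Of the 5 genes with at least 10 CPM, 3 were at least 2-fold higher in replicate 2 and 0 were at least 2-fold lower. Over the 329 microRNA genes that reached 10 CPM in either library, 10.9% were at least 2-fold higher and 11.2% at least 2-fold lower. All 5 passed the floor in both libraries, so their direction did not come from it. Their median log2 ratio was 1.51, beside a median of -0.01 over all measured genes. By size of the difference in either direction, Mir196b exceeded 95.1% of measured genes, Mir196a-2 90.6% and Mir10b 88.8%, while Mir615 exceeded 64.7% and Mir10a 56.5%. The 3 genes past 2-fold belong to 2 families and lie in 3 clusters.

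**Figure D4:**
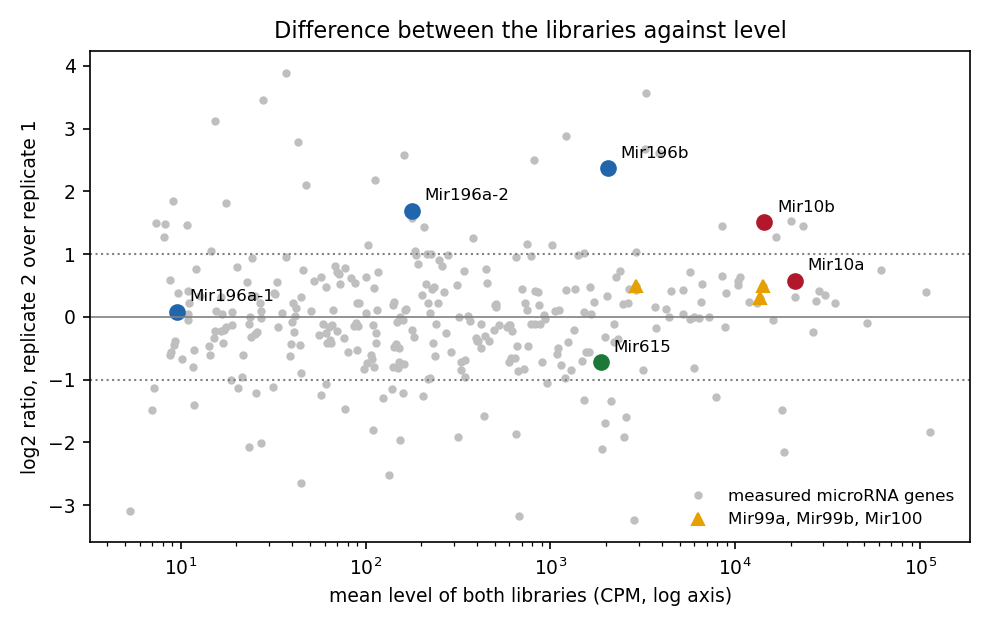
Log2 ratio of replicate 2 over replicate 1 (y axis) against the mean CPM of both libraries (x axis, log) for the 329 measured microRNA genes (grey), the Hox-cluster genes (red miR-10, blue miR-196, green Mir615) and the relatives Mir99a, Mir99b and Mir100 (yellow triangles), with 2-fold differences dotted; Mir196a-1, under the floor, is drawn as well. Mir196b, Mir196a-2 and Mir10b lie above the upper dotted line, and the relatives lie between 0.30 and 0.49.

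Relatives of the miR-10 sequence outside the Hox clusters lay closer together in the 2 libraries. The miR-99 and miR-100 genes make products that resemble miR-10 shifted by 1 base: miR-100-5p holds GUAGAUCCGAA from base 6, and miR-10a-5p holds the same 11 bases from base 7, so that their seeds differ.
miR-10a-5p: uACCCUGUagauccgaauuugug
miR-100-5p: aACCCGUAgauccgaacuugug
miR-99a-5p: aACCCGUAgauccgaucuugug
miR-99b-5p: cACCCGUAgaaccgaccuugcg
Mir99a stood at 11914 and 16204 CPM in replicates 1 and 2, Mir99b at 12367 and 14723 CPM, and Mir100 at 2452 and 3341 CPM. All 3 were somewhat higher in replicate 2, with log2 ratios of 0.49, 0.30 and 0.49, and none was 2-fold apart. Mir10a, at 0.58, lay just above these relatives and Mir10b well above them. In summed level, the relatives took 2.67% and 3.43% of counts against 2.50% and 4.61% for the miR-10 pair.

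The genes closest to each member were found by their distance in the plane of both libraries' log2 levels. With 2 libraries this likeness is only a match of 2 numbers. The nearest genes were Mir322 and Mir139 for Mir10a (distances of 0.19 and 0.60 log2 units), Mir26b and Mir23a for Mir10b (0.40 and 0.67), and Mir145a and Mir140 for Mir196b (0.82 and 0.91), which had no closer gene. Mir196a-2 lay nearest to Mir223 and Mir200b (0.10 and 0.44), and Mir615 to Mir409 and Mir341 (0.30 and 0.33).

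Markers of the cells in the tissue also differed between the libraries, and their part in the results above was not tested. Among 5 neuroendocrine markers, known from the medulla, 3 were matched by symbol. These 3 had at least 10 CPM in both libraries, with a sum of 28006 and 34779 CPM. That sum was carried by Mir375 (24805 and 31924 CPM), while Mir7b (2333 and 2081 CPM) and Mir137 (869 and 774 CPM) were slightly lower in replicate 2. Mir7a-1 and Mir7a-2 were not matched and are outside the sum. Mir7a-2 is annotated as Mir7-2, at 46.0 and 32.7 CPM with a log2 ratio of -0.43. Mesenchyme and smooth muscle markers summed to 32093 and 46403 CPM (6 of 7 genes at the floor in both) and did not move together. Mir140 and Mir145a were higher in replicate 2, with log2 ratios of 3.57 and 2.68, and Mir143 and Mir199b stood at 0.34 and 0.72, whereas Mir214 stood at -1.69 and Mir199a-2 at -0.61. General epithelial markers summed to 742 and 3274 CPM (5 of 7) and leukocyte markers to 2455 and 4308 CPM (5 of 5 matched). Each gene of these lists that was matched by symbol was higher in replicate 2. The leukocyte list of 6 genes also held Mir146a, which was not matched and is outside the sum. It is annotated as Mir146, which was lower in replicate 2, at 1441 and 1060 CPM with a log2 ratio of -0.39. Neuronal markers summed to 645 and 666 CPM (4 of 10), with Mir124a-2, Mir124a-3, Mir9-2 and Mir9-3 at 0. Reads shared by several copies of a microRNA were not counted. A value of 0 for a copy of Mir124a, Mir9, Mir1a or Mir133a thus does not show absence, and sums with such copies are no totals. Lower sums in replicate 2 were those of endothelium (177732 and 47928 CPM, 1 of 2, nearly all Mir126a) and liver (26733 and 9284 CPM, Mir122 alone). Striated muscle (11315 and 4507 CPM, 2 of 8, nearly all Mir206, with Mir1a-1 and Mir133a-2 at 0) and red blood cells (653 and 320 CPM, 3 of 3 matched) were lower as well. The red blood cell list of 4 genes also held Mir486b, which was not matched and is outside the sum. Kidney or gut epithelial markers summed to 411 and 215 CPM (3 of 5). Of these, Mir192 and Mir194-2 were lower in replicate 2, with log2 ratios of -1.80 and -1.29, and Mir204 was higher, at 57.8 and 96.3 CPM. With Mir126a and Mir378a, the most counted genes, taken out of the totals, the summed Hox-cluster share had a mean of 5.01% ± 1.62 (SD, n = 2).

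Base composition separated Mir615 from the others. Its hairpin had a GC content of 69.6%, above that of 96.7% of measured genes, while Mir10a and Mir10b stood at 40.0% and 39.7%, and the miR-196 hairpins at 43.5% (Mir196a-2), 47.1% (Mir196b) and 48.0% (Mir196a-1). Across the 329 measured genes of these 2 libraries, Spearman's rho between hairpin GC content and the log2 ratio was -0.0844, a description over genes that share libraries and depth.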

How the data were processed

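The authors deposited 1 table of raw read counts per microRNA gene for each library, counted on mm10 with the GENCODE M21 annotation, as the deposited readme texts state. No source used here names the aligner or counter. Only sense-strand reads were used. The 4 summary lines were left out of totals: in replicates 1 and 2, 25.0% and 27.2% of 5278986 and 8555429 reads had several alignments, 28.1% and 26.4% were unmapped, and 8.55% and 8.86% lay outside microRNA genes. All 2202 identifiers matched the annotation. A read was worth 0.494 and 0.312 CPM, and a count of 0 was taken to allow 3 counts. The libraries were not identical (chi-square of 510403 over 437 degrees of freedom). Intervals are exact, at 95%, and the ratio script was tested on simulated data. TMM factors came from edgeR 4.0.16 and alternative size factors from DESeq2 1.42.0, in R 4.3.3, other steps from Python 3.11.15 with SciPy 1.17.1. Counts irrespective of strand, other totals, scalings, pseudocounts and floors, and each library alone, were tried. Named genes were the 6 members, the 2 nearest genes to each measured member, the miR-10 relatives and the marker lists. Of the lists, Mir7a-1, Mir7a-2, Mir146a and Mir486b were not matched by symbol and were left out of the sums. The members, lists and tests were chosen with earlier results of these data known.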

Additional observations from a re-analysis of the deposited data

How the results depend on the processing

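Under the alternatives run, no log2 ratio of the 6 genes changed sign. Counted irrespective of strand, the reads of these genes were the same but for 1 read of Mir10a. The alternatives for the ratios thus changed the scaling and the pseudocount, and hardly the counts of the genes. Over 6 alternatives each, Mir196b stayed between 2.29 and 2.41, Mir196a-2 between 1.60 and 1.73, Mir10b between 1.43 and 1.54, Mir10a between 0.50 and 0.61, Mir196a-1 between 0.01 and 0.11 and Mir615 between -0.80 and -0.69, so the 3 genes past 2-fold kept that side. Of these 36 ratios, 9 left the exact interval of the reported value. The median ratio of all measured genes ran from -0.08 to 0.03 over the scalings. As a percentage of all reads in place of assigned reads, the summed Hox-cluster share was 1.50%, since that total is larger. Genes at least 2-fold higher in replicate 2 numbered 36 and lower 37. With every gene of 1 count or more they numbered 68 and 63, and at a floor of 100 CPM 24 were lower, as fewer or more genes were tested. With 1 library left out, the summed share is that of the other library. A group of 2 libraries allows no test of the animals' difference, and Mir196a-1, at 19 and 31 reads, is limited by depth. Reads shared by the copies of miR-196a are not recovered by any alternative.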

Other observations

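The miR-196 seed resembles that of let-7, an abundant family in differentiated tissue. miR-196a-5p and let-7b-5p share the 7 bases AGGUAGU, which start at base 2 of miR-196a-5p and at base 3 of let-7b-5p, so the run is the whole seed of miR-196 but lies 1 base off the seed of let-7b-5p.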
